A study of Mus musculus with 9 samples.

Results

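The genes described here were grouped as secreted angiopoietin-like proteins and hepatokines, although 1 of them, Selenbp2, encodes an intracellular protein. They are Fgf21, Enho (adropin), the angiopoietin-like proteins Angptl4 and Angptl6, fetuin B (Fetub), retinol-binding protein 4 (Rbp4), Gdf15 and Selenbp2. Members were chosen by gene symbol. Each was read from the probe set annotated to that symbol alone, or from the one with the highest mean signal over the 9 arrays where there were several. Of the 8 named genes, 6 had such a probe set, and all 6 were among the 12476 genes tested. Gdf15 was not analysed here, and the probe set that may read Selenbp2 is described separately.

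The data came from female Crlj:CD1(ICR) mice, an outbred stock, bought at 9 weeks of age and quarantined for 1 week. The mice ate powdered diet with 5000 ppm permethrin (a pyrethroid insecticide), with 5000 ppm clofibrate (a lipid-lowering fibrate that activates the nuclear receptor PPAR alpha) or with 0 ppm of either compound as control. Feeding lasted 2 weeks, and whole-liver RNA from 3 mice in each group was hybridised to Affymetrix arrays, 1 mouse per array. The labels call the samples biological replicates; the free-text description of treated animals reads rats, against mouse in their other fields.

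Hepatokines are proteins that the liver secretes to signal to other organs. FGF21 rises in fasting under PPAR alpha and signals through FGF receptors with the co-receptor beta-klotho. ANGPTL4, also a PPAR alpha target, inhibits lipoprotein lipase and so slows the uptake of fatty acids from circulating triglyceride, while ANGPTL6 has been linked to energy expenditure. Adropin is a short secreted peptide tied to glucose and lipid balance. Fetuin B is a plasma protease inhibitor, and RBP4 carries retinol out of the liver bound to transthyretin.

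Some properties of the arrays differed between the groups. The highest signal on an array was 12792 to 13408.5 with permethrin and 10714 to 12058 with clofibrate, against 14387 to 14899 in controls. The 18S ribosomal RNA signal was 47.6 to 131 and 87.7 to 126 in the treated groups, against 191 to 208 in controls. The ratio of 3′ to 5′ signal of Gapdh, a sign of RNA quality, was 0.835 to 0.904 with permethrin and 0.856 to 0.894 with clofibrate, against 0.912 to 1.04 in controls, so neither treated group overlapped the controls. The 8 hepatocyte markers, led by albumin, were all tested. Their summed signal was 58027 to 62748 with permethrin, 48035 to 56279.8 with clofibrate and 66217 to 71471 in controls, so neither treated group overlapped the controls. The 8 endothelial markers summed to 2193 to 2499 with permethrin, 1814 to 1981 with clofibrate and 2451 to 2820.0 in controls. The 10 Kupffer cell markers overlapped between all groups (3195 to 6901, 3786 to 5181 and 3789 to 4495), as did the 9 stellate cell markers (2409 to 2489.7, 2077 to 2687 and 2446 to 3829.8). Pancreas markers, 5 of 7 tested, summed to 228 to 357, 272 to 326 and 1209 to 1524 in the same order. Of these 5, limma called only Cela1 lower in each comparison with control. With permethrin all 5 had a negative log2 change (median -0.71), and with clofibrate 3 did (median -0.16). Cholangiocyte markers (3 of 6 tested) and lymphocyte and neutrophil markers (3 of 9 tested) overlapped, and 0 of 5 adipocyte markers reached the filter. The part of these differences in the results below was not tested. In whole liver, fewer cells of a type and less RNA per cell cannot be told apart.

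The first question was which of the secreted proteins changed their transcript level under each diet. Enho fell under both compounds. Fgf21 rose, and Fetub and Rbp4 fell, under clofibrate, but these last 3 calls were lost under several other ways of processing the arrays, given with each gene. Angptl4 and Angptl6 did not pass the test in any comparison. With permethrin against control, 1 of the 6 members passed the limma threshold (adjusted p under 0.05), where 2.12% of all 12476 genes did. With clofibrate against control, 4 of 6 passed, where 7.03% of all genes did. Fetub and Rbp4 are among the 266 genes at least as bright as Fetub, of which 96 fell and 15 rose with clofibrate. The members were chosen with earlier results of these data known. The median log2 change over the 6 members was -0.30 with permethrin and -0.42 with clofibrate, and -0.04 over all genes in each comparison. Both comparisons use the same 3 control mice.

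**Figure D1:**
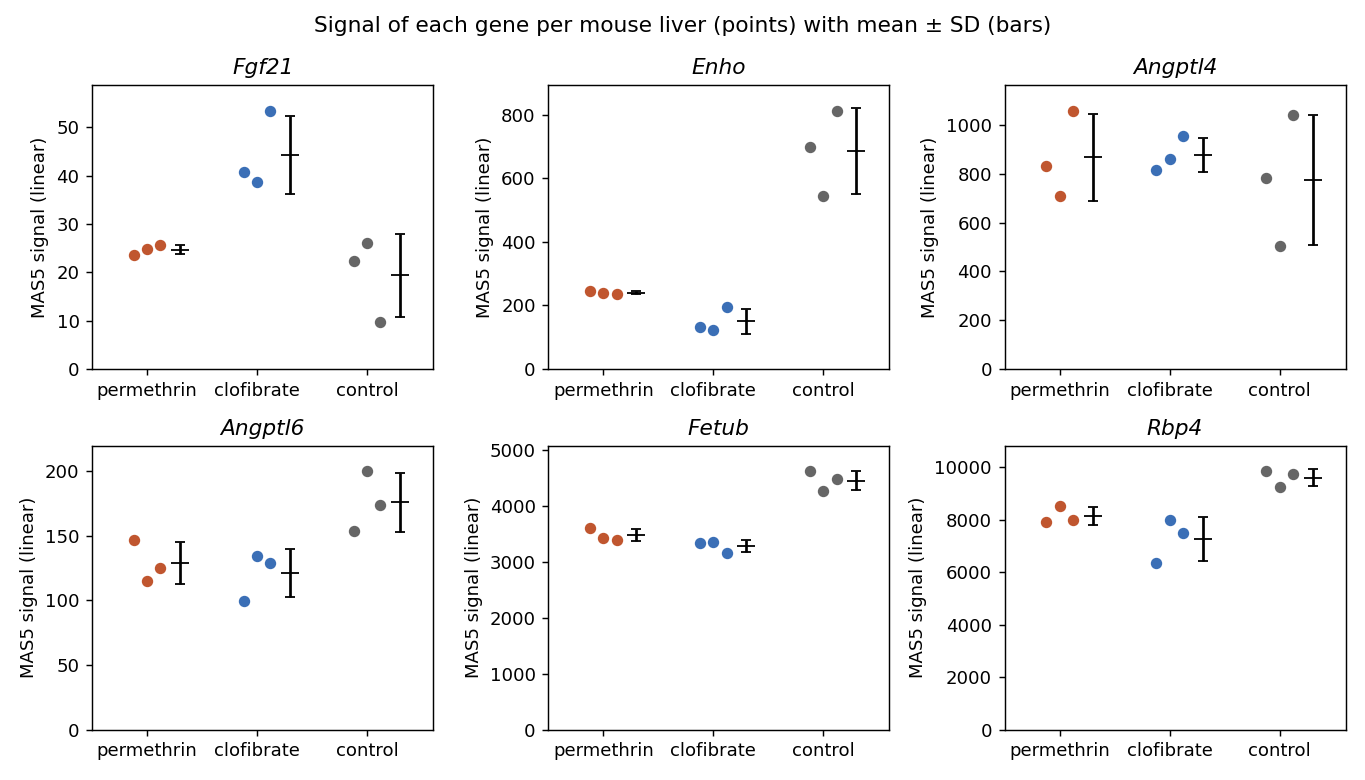
Array signal (linear units, y axis) of the 6 measured genes in each mouse (points) with the group mean and SD (black bars, n = 3) for permethrin, clofibrate and control diets. Enho is 237 to 245 and 122 to 194 in the treated groups and 544 to 813 in controls, and the 3 clofibrate points of Fgf21 lie above all others.

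**Figure D2:**
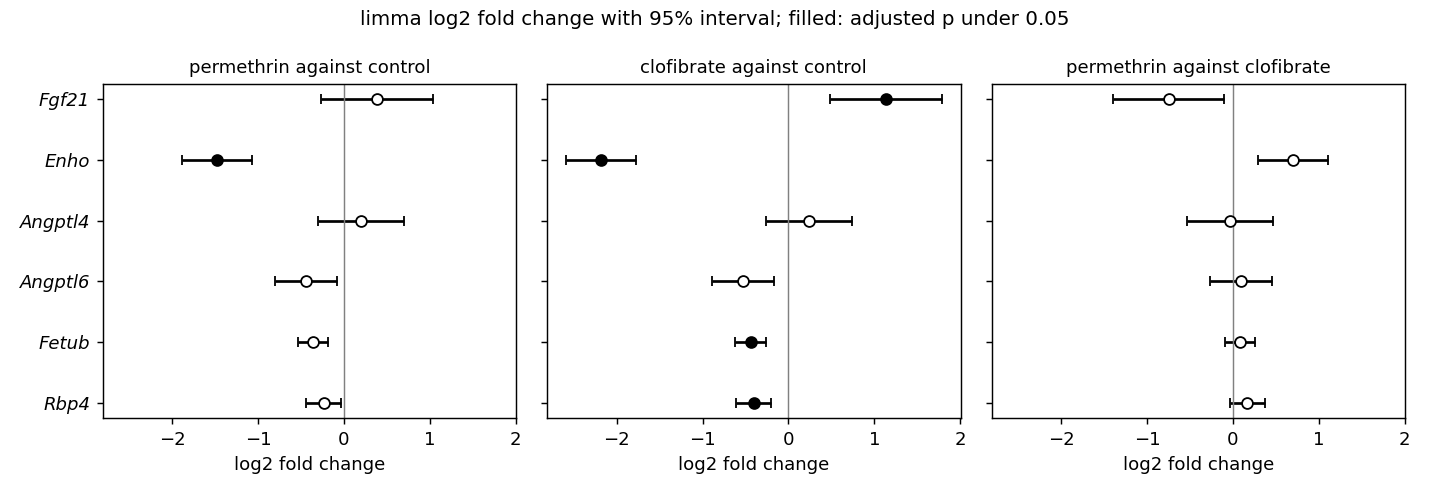
log2 fold change (x axis) of the 6 measured genes with its 95% interval from limma, in 3 panels: permethrin over control, clofibrate over control, and permethrin over clofibrate. Filled circles passed an adjusted p of 0.05: Enho in the first panel, Fgf21, Enho, Fetub and Rbp4 in the second, and none in the third.

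Fgf21 encodes the fasting hormone of the group, and its promoter is shown because, of the windows of members in the RefSeq table, it alone holds TGATGCAAT, the response element bound by stress factors of the ATF4 family. The window runs from 250 bases before to 50 bases after the RefSeq start (GRCm38.p6, chr7:45615441-45615740, minus strand), 5′ to 3′. Capitals mark, in order, a C/EBP-ATF response element (TGATGCAAT, read here on the opposite strand, first base at -140), an E-box (CACGTG, at -50) and a TATA box (TATAAA, at -28).

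Fgf21 promoter: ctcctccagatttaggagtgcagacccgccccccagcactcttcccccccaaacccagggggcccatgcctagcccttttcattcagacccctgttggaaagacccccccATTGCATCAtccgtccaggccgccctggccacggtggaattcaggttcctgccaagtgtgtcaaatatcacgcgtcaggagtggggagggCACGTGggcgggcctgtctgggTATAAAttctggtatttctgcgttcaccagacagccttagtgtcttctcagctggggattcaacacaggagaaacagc

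Both strands were searched in each of 32851 RefSeq promoter windows of this length. TGATGCAAT occurs in 0.192% of them, CACGTG in 7.15% and TATAAA in 13.6%. The nuclear receptor half-site AGGTCA, found in 16.3%, and the direct repeat of this half-site with 1 base between the copies, found in 0.0396%, do not occur in the Fgf21 window. A match describes letters only. Absence of so rare a motif from so short a window says little, and looser forms or sites outside the window were not searched.

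The Fgf21 signal was 23.7, 24.8 and 25.7 with permethrin, 40.7, 38.7 and 53.4 with clofibrate, and 22.3, 26.1 and 9.76 in controls. Clofibrate lay above every other array, permethrin overlapped the controls, and control replicate 3 was the lowest of the 9. All values are dim: the signal filter lies at 15.6. With clofibrate, Fgf21 was 2.20-fold higher than in controls (log2 change 1.14 ± 0.30 (SE), limma adjusted p = 0.0484). With permethrin the log2 change was 0.38 ± 0.30 (adjusted p = 0.62), with a 95% interval of -0.27 to 1.03.

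The Fgf21 call with clofibrate sat at the edge of the threshold. It passed in 10 of 23 other settings, in which the log2 change was 0.78 to 1.47 and adjusted p was 0.0161 to 0.182. Among fits without 1 array it passed only without control replicate 2 (adjusted p = 0.0403). Without control replicate 3 the log2 change with clofibrate was 0.78 (adjusted p = 0.11), and that with permethrin was 0.03. Without clofibrate replicate 3, the highest, it was 1.00 (adjusted p = 0.182).

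Enho, which encodes adropin, had the largest change of the 6 members in both comparisons with control. Its signal was 245, 239 and 237 with permethrin, 133, 122 and 194 with clofibrate, and 699, 544 and 813 in controls. Every treated array was below every control array, the 3 permethrin arrays differed by little, and every clofibrate array was below every permethrin array. The mean was 240.3 ± 4.42 with permethrin, 149 ± 38.5 with clofibrate and 685 ± 135 in controls (SD, n = 3). Enho fell 2.79-fold with permethrin (log2 change -1.48 ± 0.19, limma adjusted p = 0.00248). It fell 4.54-fold with clofibrate (log2 change -2.18 ± 0.19, limma adjusted p = 9.00e-05). Of 12476 genes, 25 had a lower log2 change than Enho with permethrin, and 10 did with clofibrate.

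A further Enho probe set, whose target is the same expressed sequence tag, gave the same directions. The name ending of this further probe set marks it as shared by several transcripts. It read 111, 74.2 and 115 with permethrin, 47.1, 87.7 and 121 with clofibrate, and 306, 251 and 404 in controls. Treated and control arrays did not overlap there either. Its log2 change was -1.65 ± 0.30 with permethrin (limma adjusted p = 0.0213) and -1.94 ± 0.30 with clofibrate (adjusted p = 0.00366). The other pair of Enho probe sets, aimed at another cDNA, was dim. One had 5 of 9 arrays above the filter and log2 changes of -0.15 and -0.13 with SE 0.42 (adjusted p = 0.92 and 0.908), and the other had 0 of 9 above it and was not tested. The Enho calls in both comparisons were kept in all 23 other settings, with log2 changes of -1.64 to -1.09 for permethrin and -2.38 to -1.42 for clofibrate.

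Angptl4, the lipoprotein lipase inhibitor, showed no change past the threshold. Its signal was 832, 710.4 and 1059 with permethrin, 817, 860.3 and 956 with clofibrate, and 782, 504 and 1039.6 in controls. The controls spanned nearly the whole range of the 9 arrays, and all groups overlapped. The log2 change was 0.20 with permethrin (95% interval -0.30 to 0.70, limma adjusted p = 0.755) and 0.24 with clofibrate (-0.26 to 0.74, adjusted p = 0.646). Both intervals include a fall as well as a rise. The name ending of the probe set read here marks it as shared by several transcripts. The other Angptl4 probe set was above the filter on 0 of 9 arrays.

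Angptl6 read 147, 115 and 125 with permethrin, 99.8, 134 and 129 with clofibrate, and 154, 199.6 and 174 in controls. Treated arrays lay below the controls in both groups, though the closest pair, 147 and 154, nearly met. The log2 change was -0.44 ± 0.16 with permethrin (limma adjusted p = 0.256) and -0.53 ± 0.16 with clofibrate (adjusted p = 0.0923), and it did not pass in any of the 23 other settings of either comparison. Groups without overlap were common on these arrays. With permethrin, 4 of the 6 members lay wholly below the controls and 0 wholly above, where 13.2% of all genes lay below, 9.52% above and 22.7% on either side. With clofibrate, 4 lay below and Fgf21 above, where 15.6% of all genes lay below, 11.7% above and 27.2% on either side.

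Fetub and Rbp4 encode abundant plasma proteins, and their promoters are shown because both carry TATAAA near the start and both genes fell with clofibrate. Fgf21, which rose with clofibrate, carries TATAAA at -28 as well, and 13.6% of all windows hold it. A link between this motif and the changes was not tested. The Fetub window is GRCm38.p6 chr16:22918132-22918431 on the plus strand, and the Rbp4 window is chr19:38124762-38125061 on the minus strand. Capitals mark TATAAA (first base at -31 in Fetub and -28 in Rbp4) and, in Fetub, a pair of CCAAT boxes (CCAAT, found in 37.4% of all windows on either strand).

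Fetub promoter: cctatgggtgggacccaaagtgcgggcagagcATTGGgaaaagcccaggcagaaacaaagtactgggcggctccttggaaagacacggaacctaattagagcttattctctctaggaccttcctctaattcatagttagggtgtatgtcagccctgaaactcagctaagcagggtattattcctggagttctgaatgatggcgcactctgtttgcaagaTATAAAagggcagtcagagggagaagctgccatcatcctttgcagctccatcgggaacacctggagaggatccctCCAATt
Rbp4 promoter: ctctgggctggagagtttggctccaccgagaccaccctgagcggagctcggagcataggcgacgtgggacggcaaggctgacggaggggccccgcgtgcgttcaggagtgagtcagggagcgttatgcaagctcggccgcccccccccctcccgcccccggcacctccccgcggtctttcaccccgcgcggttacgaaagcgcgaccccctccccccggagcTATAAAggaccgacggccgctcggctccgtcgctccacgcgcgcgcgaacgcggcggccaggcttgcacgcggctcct

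RefSeq gives a second window for each of these genes, and neither of those holds TATAAA. The search found none of the 6 motifs in the Angptl6 window. Angptl4 and Enho have no entry in the promoter table.

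Fetub, the fetuin B gene, read 3599.7, 3425 and 3394 with permethrin, 3333, 3344.5 and 3148 with clofibrate, and 4611, 4266 and 4471 in controls. Neither treated group overlapped the controls, and the spread within each group was small, with a coefficient of variation of 3.20% with permethrin, 3.36% with clofibrate and 3.90% in controls. Fetub fell 1.36-fold with clofibrate (log2 change -0.44 ± 0.08, limma adjusted p = 0.00844). With permethrin the log2 change was -0.36 ± 0.08 and just missed the threshold (adjusted p = 0.0547), passing in 5 of 23 other settings. The clofibrate call was lost without clofibrate replicate 3 (adjusted p = 0.0518), without the intensity trend (adjusted p = 0.0844), with arrays centred on their median (-0.36, adjusted p = 0.211) and with scaling to the hybridization controls (-0.11, adjusted p = 0.669).

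Rbp4, the retinol carrier, read 7916, 8547 and 8006 with permethrin, 6361, 7989 and 7502 with clofibrate, and 9843, 9246 and 9746 in controls. Both treated groups lay below the controls, and clofibrate replicate 1 was the lowest array. Rbp4 fell 1.32-fold with clofibrate (log2 change -0.41 ± 0.09, limma adjusted p = 0.0281). With permethrin the log2 change was -0.24 ± 0.09 (adjusted p = 0.283). The clofibrate call was kept in 12 of 23 other settings. Quantile normalization, which gives all arrays the same distribution of signals, reduced the log2 change to -0.13 (adjusted p = 0.233), and cyclic loess to -0.24 (adjusted p = 0.0573). Leaving out clofibrate replicate 3 or any of the 3 controls also ended it, with log2 changes of -0.43 and of -0.43 to -0.39.

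The falls of Fetub and Rbp4 were set beside those of other bright genes, a description added after their values were seen. Of the 266 genes with a mean signal at or above that of Fetub, 96 fell and 15 rose with clofibrate, with a median log2 change of -0.30 and quartiles of -0.43 and -0.12. With permethrin, 6 fell and 11 rose, with a median of -0.13 and quartiles of -0.26 and 0.00158. The highest signal on each array was also lower in treated groups, as given above. Its part in these falls was not tested. Scaling to the hybridization controls, transcripts added in fixed amounts, raised the median over all genes by 0.33 on the log2 scale with clofibrate and by 0.15 with permethrin. Relative to the median gene, Fetub was at -0.40 and Rbp4 at -0.36 with clofibrate. Scalings that shift all genes of an array alike cannot change these values, so they are no check on them. Under quantile normalization these values were -0.31 and -0.11, and under cyclic loess -0.31 and -0.22.

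Selenbp2, a mouse liver protein known for binding selenium and acetaminophen, could not be read alone. No probe set carries its symbol. One named Selenbp1 in the platform annotation has as its target the RefSeq transcript now assigned to Selenbp2, and its name ending marks it as shared by several transcripts. It read 3515, 3652 and 3199 with permethrin, 2642, 3506 and 3224 with clofibrate, and 3329, 3314 and 3554 in controls. All groups overlapped, with log2 changes of 0.02 ± 0.11 and -0.13 ± 0.11 (limma adjusted p = 0.957 and 0.592). The probe set aimed at Selenbp1 itself read 2893, 3243 and 3046 with permethrin, 2603, 3357 and 3370.0 with clofibrate, and 3241, 3032 and 3181 in controls. Its log2 changes were -0.04 ± 0.11 and -0.03 ± 0.11 (adjusted p = 0.91 and 0.924), and which of the close relatives either probe set reads was not tested.

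Permethrin against clofibrate asks whether the compounds differ at the same dietary concentration and time. None of the 6 members passed limma, while 0.737% of all genes did (0.473% higher and 0.265% lower with permethrin), and 2 of the 6 had an unadjusted p under 0.05. Of all 12476 genes, 1103 had a limma unadjusted p of at most 0.0272, the value of Fgf21, in this comparison. More genes than that lay under 0.05, so this is a lower bound for the background of the members. Enho was 1.63-fold higher with permethrin than with clofibrate (log2 difference 0.70 ± 0.19, 95% interval 0.29 to 1.11, adjusted p = 0.143), with no overlap between the groups. Of the 6 members, Enho and Fetub lay wholly higher with permethrin and Fgf21 wholly lower, where 9.09% of all genes lay higher, 9.05% lower and 18.1% on either side. The further Enho probe set gave 0.29 ± 0.30, and its groups overlapped. Fgf21 had a log2 difference of -0.75 ± 0.30 (-1.40 to -0.10, adjusted p = 0.338), again without overlap. Angptl4, Angptl6, Fetub and Rbp4 differed by -0.03, 0.09, 0.08 and 0.17 on the log2 scale, with 95% intervals of -0.53 to 0.47, -0.27 to 0.45, -0.09 to 0.26 and -0.04 to 0.37. Scaling to the hybridization controls shifted the median over all genes by -0.19 in this comparison. The differences of Angptl6, Fetub and Rbp4 were then -0.09, -0.10 and -0.02. This scaling moves all genes of an array alike, so taking off the shift returns 0.09, 0.08 and 0.17 by construction. The sign of the Fetub difference turned under cyclic loess (-0.01). A difference between the compounds in their effect on any of these genes did not pass the test, which does not show that they act alike.

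Genes whose pattern over the 9 arrays was most like that of a changed member were sought among the other 12475 tested genes. The measure was the root mean square difference of log2 signals, each gene centred on its own mean. Apoa4, an apolipoprotein of triglyceride-rich particles and HDL, was closest to Enho at 0.29, where Enho itself varied by 0.93 around its mean. It read 916, 1138 and 1224 with permethrin, 921, 597 and 810.0 with clofibrate, and 2779, 2237 and 2679.9 in controls. The next was Nat8f1, at 0.34. Fgf21 was closest to 1300002E11Rik (0.13) and Sugct (0.22), against its own variation of 0.57. Sugct, which encodes a glutarate CoA-transferase, read 172, 194 and 188 with permethrin, 273, 199.1 and 285 with clofibrate, and 138, 145 and 94.8 in controls. Rbp4 was closest to the plasma proteins Apoh and Ambp (0.02 and 0.03), and Fetub to Ndrg2 and the aldehyde dehydrogenase Aldh2 (both 0.05). Since likeness over these arrays chose the genes, their own group changes are no further result.

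Related genes were described by lists and by the call rule used for the members. Of 8 other angiopoietins and angiopoietin-like genes 3 were tested, and limma called 0 of them in any comparison, also at an unadjusted p under 0.05. Angptl8, a regulator of plasma triglyceride, read 139.9 ± 57.0 with permethrin, 139.3 ± 41.1 with clofibrate and 152 ± 27.4 in controls (SD, n = 3). Of 28 other hepatokines and liver-made hormones 23 were tested. With permethrin 2 fell and 0 rose (median -0.22), where 0.842% of all genes fell. With clofibrate 7 fell and 0 rose (median -0.27), where 3.8% of all genes fell. Falls were more common among bright genes. Of the 266 genes at least as bright as Fetub, 96 fell and 15 rose with clofibrate (median -0.30). With permethrin 6 of these fell and 11 rose (median -0.13).

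Lect2, a chemotactic factor and hepatokine, was the most reduced of the called genes in that list. It averaged 1163 ± 139 with permethrin, 902 ± 100.2 with clofibrate and 2072 ± 521 in controls (SD, n = 3). Its log2 change was -0.81 with permethrin (limma adjusted p = 0.0361) and -1.17 with clofibrate (adjusted p = 0.00193). Smoc1, a secreted glycoprotein, fell in both as well (-0.70 and -0.57). With clofibrate the others were Agt (angiotensinogen, -0.76), Igf1 (-0.62), Ahsg (fetuin A, -0.56), Hamp (hepcidin, -0.44) and Selenop (selenoprotein P, -0.39). Agt, Igf1, Ahsg, Hamp and Selenop each had a mean signal above that of Fetub. With arrays centred on their median the list had 0 falls with permethrin and 1 with clofibrate, and under scaling to the hybridization controls 0 and 2. The list's median with clofibrate was then 0.06, against 0.29 over all genes. The permethrin count was also 0 without permethrin replicate 2 or 3 or control replicate 1 or 3, 1 without permethrin replicate 1 or control replicate 2, 5 without clofibrate replicate 1 and 4 with the 2 groups compared alone, and the clofibrate count was 3 without clofibrate replicate 3 or any 1 control.

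**Figure D3:**
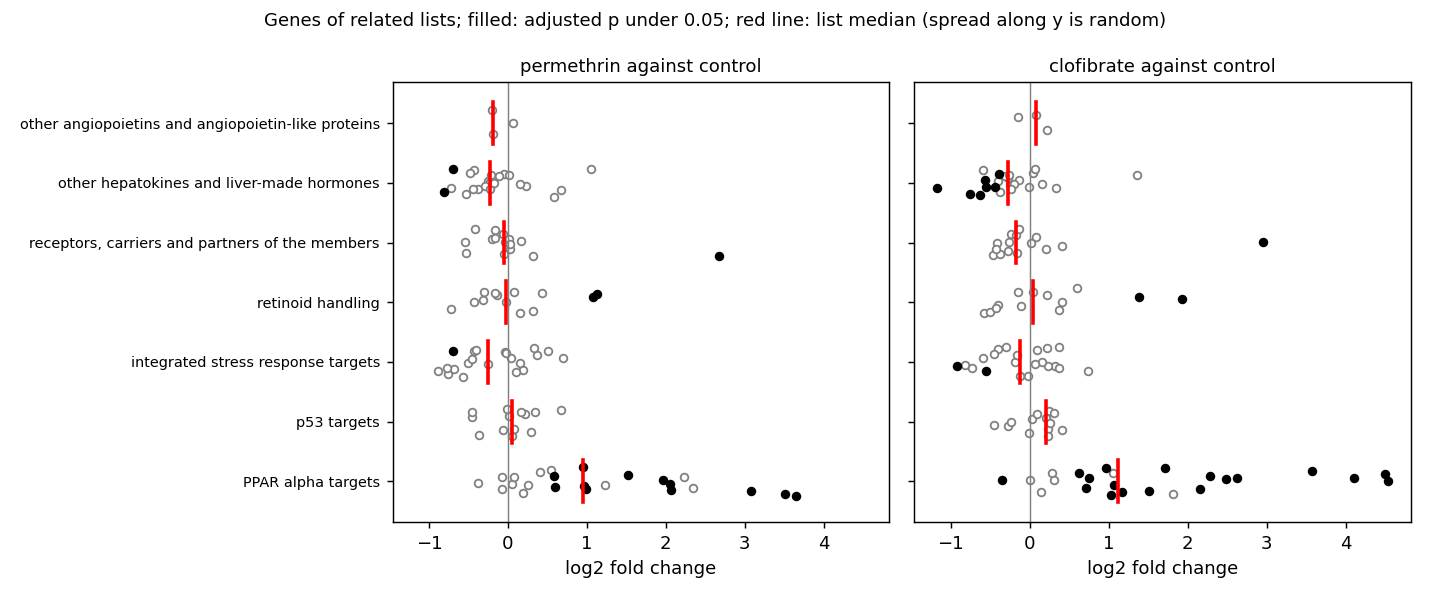
log2 fold change (x axis) of each tested gene in 7 lists of related genes (rows), for permethrin against control and clofibrate against control. Filled points passed an adjusted p of 0.05, and the red line is the list median; that of the PPAR alpha targets is 0.96 and 1.12, and those of the other lists lie between -0.27 and 0.21.

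Among partners of the members, lipoprotein lipase, the enzyme that ANGPTL4 inhibits, rose with both compounds. Of 18 genes for receptors, carriers and partners, 15 were tested, and 1 rose in each comparison with 0 lower (medians -0.05 and -0.17). At an unadjusted p under 0.05, 3 were lower with permethrin and 4 with clofibrate. Over all 12476 genes, 1435 had a limma unadjusted p of at most 0.0275 with permethrin, in either direction. With clofibrate, 1244 had one of at most 0.0077. Both are lower bounds for the counts under 0.05, at unlike cut-offs. The clofibrate count of calls was 2 without clofibrate replicate 2. It rose in 3 of 14 processing choices, to 3 with array weights. The permethrin count of calls fell to 0 in 2 of 14 processing choices. The gene that rose was Lpl, which averaged 1340.3 ± 512 with permethrin, 1664 ± 772 with clofibrate and 208 ± 85.0 in controls (SD, n = 3), a 6.40-fold and a 7.76-fold rise. The Lpl call passed in 21 of 23 other settings with permethrin (limma adjusted p up to 0.0668) and in all 23 with clofibrate. Klb, the beta-klotho co-receptor of FGF21, had log2 changes of 0.02 and 0.21 (adjusted p = 0.974 and 0.538). Ttr, which binds RBP4 in plasma, had log2 changes of -0.16 and -0.43 (adjusted p = 0.603 and 0.0554), and with clofibrate it passed in 4 of 23 other settings. In retinoid handling, 13 of 17 genes were tested, and Retsat (retinol saturase) and Rdh16 (a retinol dehydrogenase) rose in both comparisons, by 2.19-fold and 2.12-fold with permethrin and by 2.61-fold and 3.79-fold with clofibrate. The Rdh16 call with permethrin was lost without permethrin replicate 2 or 3 or control replicate 1 (log2 change 1.03, 1.08 and 0.99). It was also lost in 1 of 14 processing choices (limma adjusted p = 0.0856).

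Targets of PPAR alpha and of the integrated stress response, both known to act on Fgf21, were counted in the same way. PPAR alpha targets rose in 12 of 24 cases with permethrin, with 0 lower, and in 17 of 24 with clofibrate, with Fabp1 lower (medians 0.96 and 1.12), where 1.28% and 3.23% of all genes rose. Cd36, Vnn1 and Acot1 rose 12.5-fold, 11.3-fold and 8.44-fold with permethrin and 22.5-fold, 23.2-fold and 17.1-fold with clofibrate. Cpt1a, which lets long-chain fatty acids enter mitochondria, had log2 changes of 0.05 and 0.71 (limma adjusted p = 0.912 and 0.00859). Angptl4, a target of the same receptor, did not pass in either comparison. Of 21 tested targets of the integrated stress response, 0 rose in either comparison, and 1 fell with permethrin and 2 with clofibrate, where 0.842% and 3.8% of all genes fell. At an unadjusted p under 0.05, 0 were higher in either, and 6 were lower with permethrin and 5 with clofibrate. Of all 12476 genes, 1435 had a limma unadjusted p of at most 0.0275 with permethrin, in either direction. With clofibrate, 1244 had one of at most 0.0077. These cut-offs differ and lie below 0.05, so both are lower bounds and cannot be set against each other or against the list counts. Atf5 fell with permethrin (log2 change -0.70), and Cth and Shmt2 fell with clofibrate (-0.92 and -0.55). With arrays centred on their median or scaled to the hybridization controls, 0 of the 21 passed in either comparison. The same held for permethrin without permethrin replicate 2 or 3 or control replicate 1 or 3, and for clofibrate without clofibrate replicate 3; without control replicate 1 or 3 the clofibrate count was 1. The stress factors Atf4, Ddit3 and Trib3 had log2 changes of -0.43, 0.04 and -0.25 with permethrin and of -0.30, 0.24 and 0.37 with clofibrate, none past the threshold. Of 13 tested p53 targets limma called 0 in either comparison, with 1 and 3 higher at an unadjusted p under 0.05 (medians 0.05 and 0.21).

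**Figure D4:**
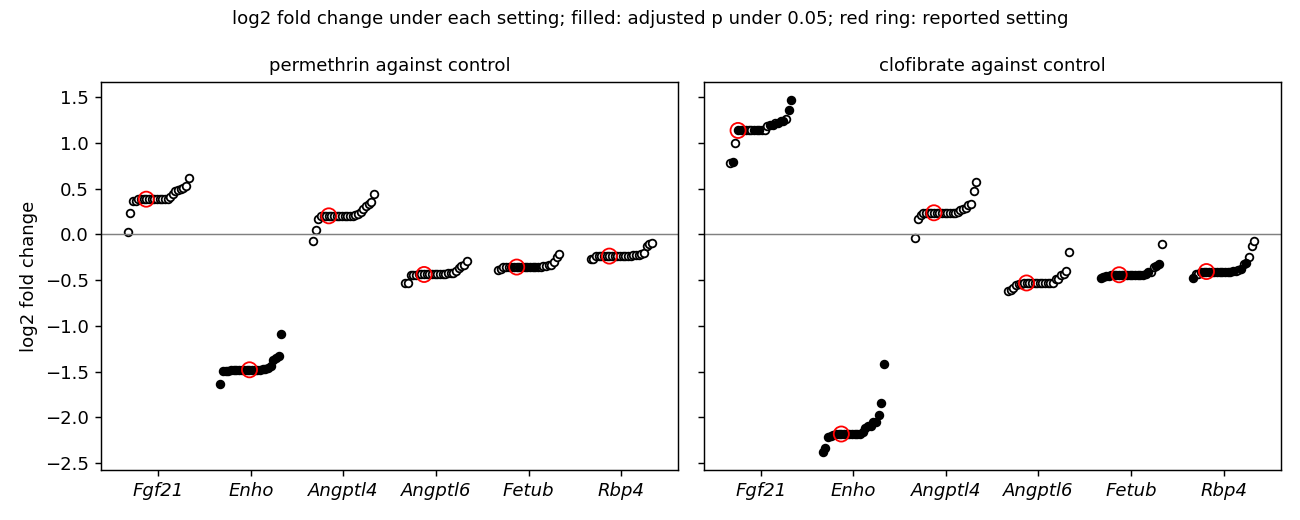
log2 fold change (y axis) of the 6 measured genes under the reported setting (red ring) and 23 others (points sorted by value within each gene), for permethrin against control and clofibrate against control. Filled points passed an adjusted p of 0.05; Enho is filled throughout, Fgf21 with clofibrate in the reported setting and 10 others, and Angptl4 and Angptl6 in none.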

How the data were processed

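Liver RNA from 9 mice was measured on 9 arrays, 3 per group. Per the submitters' processing notes the authors used MAS5, and they deposited 1 linear intensity per probe set and array; no version or setting is given in the sources used here. Values of 45101 probe sets were used, including 64 array controls. The annotation gave 34945 probe sets 1 symbol, 932 several and 9160 none; symbols were updated through Entrez identifiers. Before log2, 3.35 was added to each signal (percentile 20 over all arrays), which understates changes of dim genes. Probe sets above 15.6, the median signal, on at least 3 arrays were tested (24546, for 12476 genes, each represented by its brightest).

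All 9 arrays entered 1 limma fit (limma 3.58.1, R 4.3.3) and its intensity trend. Two-sided tests were used, with Benjamini-Hochberg adjustment over all tested probe sets and a threshold of 0.05. Values after ± of a log2 change are standard errors. Files give no counting depth; the number of arrays limits the precision. The fit was tested on simulated data. Members and gene lists were chosen with earlier results of these data known. Named from the 7 lists were up to 4 called genes of each list per comparison with control, a few fixed genes and, after their values were seen, Ahsg, Hamp, Selenop and Fabp1. The 2 genes of closest pattern were named for each changed member. Promoter sequences are RefSeq's. No batch was known. Same-numbered mice share nothing by the labels; their deviations from the group means had correlations of -0.11 to 0.11, and the fit has no block. Alternatives changed the offset, normalization, filter, variance model, array weights, arrays, probe set choice and replicate block.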

Additional observations from a re-analysis of the deposited data

How the results depend on the processing

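No result changed sign while past the threshold under any of 23 other settings: 14 processing choices and 9 fits without 1 array. The fall of Enho passed in all 23 in both comparisons with control. Of the members, permethrin against control had 1 past the threshold, and 2 when the mean signal was filtered on, with array weights, with the 2 groups compared alone and with the mean of all probe sets. Clofibrate against control had 4, and 2 with arrays centred on the median, scaled to the hybridization controls, with no filter and with the 2 groups alone, and 1 without the intensity trend. Smaller changes of a count are not all listed here. For example, Rbp4 was lost under quantile normalization and cyclic loess (limma adjusted p = 0.233 and 0.0573). Over all genes, permethrin against control gave 265, and 142 centred, 164 scaled to the hybridization controls and 79 without the trend. Clofibrate against control gave 877, and 488 centred, 398 without the trend and 1496 with array weights. Permethrin against clofibrate gave 92, and 32 centred, 43 scaled to the hybridization controls, 10 without the trend, 226 with array weights and 48 with the 2 groups alone. Genes of the 7 lists numbered 18 with permethrin and 30 with clofibrate, and 8 and 18 without the trend. Between the compounds they numbered 5, and 8 with an offset of 16, 9 with quantile normalization, 1 centred, 8 with cyclic loess, 3 with no filter, 0 without the trend, 11 with array weights and 2 with the 2 groups alone. Scaling moved the split of higher against lower calls: clofibrate against control had 403 and 474, against 306 and 182 centred and 1035 and 89 scaled to the hybridization controls. For permethrin against control the split was 160 and 105, against 117 and 25 centred and 143 and 21 scaled to the hybridization controls. Between the compounds it was 59 and 33, against 25 and 7 centred and 9 and 34 scaled to the hybridization controls. The cause of these changes was not tested.

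Leaving out 1 array gave 1 to 2 members with permethrin, 1 to 3 with clofibrate and 0 to 0 between the compounds. Over all genes it gave 108 to 317, 429 to 891 and 17 to 119, and over the lists 11 to 21, 21 to 29 and 0 to 7. The lowest clofibrate counts, 1 member and 429 genes, came without clofibrate replicate 3, and the lowest permethrin count, 108 genes, without control replicate 1. With 3 arrays per group, single calls near the threshold depend on 1 array, and signals as dim as that of Fgf21 limit its precision.

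With the replicate number as a block, the members past the threshold were 1 with permethrin, 3 with clofibrate and 0 between the compounds, the genes 204, 727 and 62, and the list genes 16, 27 and 6. The labels do not say that the numbers pair mice. Fgf21 with clofibrate was then at an adjusted p of 0.0817.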
